A study of Mus musculus with 4 samples.

Results

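Matricellular proteins and small leucine-rich proteoglycans were followed gene by gene in 4 spatially resolved sections of MC38 tumors. The group holds 10 of the 32285 genes in the tables, which were read by symbol: Lum, Dcn, Bgn, Postn, Thbs1, Thbs2, Thbs4, Tnc, Ccn1 and Ccn2. The group was chosen by its measured values, because the ratio of edge to interior level of Lum, Thbs4 and Ccn1 had been seen to differ between the strains. Strain differences of the 10 genes, and the edge values of those 3 genes, are therefore given as a description, with no test. MC38 cells, a colon carcinoma line derived from C57BL/6 mice, had been grown subcutaneously in female F1 hosts aged 8 to 12 weeks. The CC075F1 hosts were C57BL/6J x CC075/UncJ crosses and the CC080F1 hosts C57BL/6J x CC080/TauUncJ crosses, with 2 sections (replicates 1 and 2) of each. All hosts carried tumors of 75 to 110 mm3 when they were given isotype control antibody (200 µg), and the tissue was taken after 48 hours. RNA was captured on Visium slides, on which each barcoded spot collects the RNA of the several cells above it, so tumor cells and host stroma share a spot.

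Matricellular proteins are secreted into the extracellular matrix, where they bind cell-surface receptors, proteases and growth factors rather than serve as structural scaffold. They are low in most resting adult tissue and are made during wound repair, fibrosis and tumor growth. Lumican (Lum), decorin (Dcn) and biglycan (Bgn) are small leucine-rich proteoglycans, which bind collagen and shape its fibrils. Decorin and biglycan also bind TGF-β. Ccn1 and Ccn2 are matrix signaling proteins whose genes are textbook targets of the YAP/TAZ co-activators, which act through TEAD factors.

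The promoter table (RefSeq, GRCm38.p6) held 6 of the 10 genes. The 250 bases before the transcription start are shown for Ccn1 and Thbs4, members whose edge ratios differed in opposite directions between the strains and the only ones of the 6 with CATTCC in that window. Capitals mark CATTCC, the letters to which TEAD factors bind, and TATAAA, the TATA-box letters, searched on both strands. The window before Ccn1 is chr3:145649986-145650235 and that before Thbs4 is chr13:92794819-92795068, and both sequences run 5′ to 3′ on the minus strand of the genome.
Ccn1: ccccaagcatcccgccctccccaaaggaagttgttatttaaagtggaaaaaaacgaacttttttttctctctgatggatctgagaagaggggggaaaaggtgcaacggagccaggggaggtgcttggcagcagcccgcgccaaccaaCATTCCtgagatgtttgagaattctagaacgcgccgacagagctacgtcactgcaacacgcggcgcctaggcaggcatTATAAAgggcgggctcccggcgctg
Thbs4: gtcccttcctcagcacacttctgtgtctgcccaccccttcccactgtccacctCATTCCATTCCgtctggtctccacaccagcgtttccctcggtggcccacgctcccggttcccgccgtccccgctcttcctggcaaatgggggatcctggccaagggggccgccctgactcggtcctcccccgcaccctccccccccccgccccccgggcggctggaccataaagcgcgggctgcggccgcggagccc
CATTCC occurred once before Ccn1, 103 bases ahead of the start, and at 2 overlapping positions before Thbs4. It was found in none of the Bgn, Postn, Thbs2 and Tnc windows, against 12.6% of the 32851 promoter windows in the table. TATAAA was found before Ccn1, Thbs2, Tnc and 1 of the 2 Postn starts, against 12.4% of all windows. Lum, Dcn, Thbs1 and Ccn2 were not matched in the table. In the annotation (GENCODE vM21, GRCm38), Dcn (chr10:97479609-97518143) and Lum (chr10:97565128-97572703) are neighbors on the plus strand. Thbs1, Tnc and Ccn2 each overlap a non-coding gene on the opposite strand.

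The sections held 2710 to 3276 spots under tissue and 82594649 to 146460975 UMIs (unique molecular identifiers, each marking 1 captured RNA molecule). Edge spots were those within 3 steps of a position off the tissue, and they made up 20.3 to 31.6% of a section. The border of the capture grid was not counted as an edge. It held 25 and 1 tissue spots in CC075F1 and 75 and 58 in CC080F1, and its effect on the edge ratios was not tested. Median depth was 18031.5 to 30120 UMIs per edge spot and 33591.5 to 46146 per interior spot, and levels are therefore given as CPM, in which the UMIs of the summed spots are scaled to a total of 1000000. CC075F1 replicate 2 stood apart: 38 of its spots carried over 1% of UMIs from skin, muscle or fat lists, against 0 to 2 in the other sections, and its skeletal muscle list was 5.91 higher at the edge on the log2 scale. All 10 fibroblast and all 10 endothelial marker genes were detected in every section. Reads of all hosts were aligned to the C57BL/6J genome, and the effect of the other parent's alleles on capture was not tested. Nothing in the labels ties the sections to batches.

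**Figure D1:**
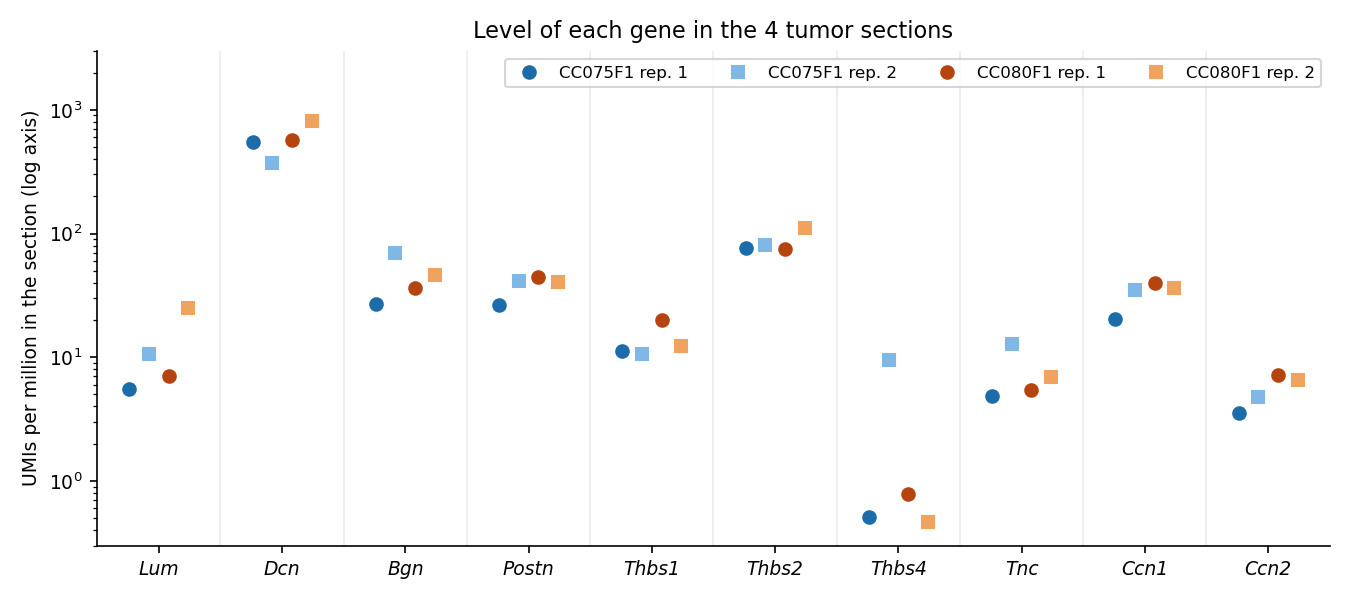
Level of each of the 10 genes in the 4 sections, in CPM on a log axis; each point is 1 section (blue, CC075F1; orange, CC080F1; circles, replicate 1; squares, replicate 2). Thbs4 reached 9.47 in CC075F1 replicate 2 and stayed at or below 0.780 in the other 3 sections, and for no other gene did 1 section stand so far from the rest.

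Of the small proteoglycans, Dcn was everywhere and had no edge preference. Dcn levels were 545 and 374 CPM in CC075F1 and 565 and 816 CPM in CC080F1, so both CC080F1 sections were above both CC075F1 sections. Dcn had at least 1 UMI in 98.9% of spots (exact 95% interval 98.4 to 99.2) in the lowest section, and in 81.1 to 97.0% of spots thinned to 5000 UMIs. Its edge against interior levels were 437 against 562 and 411 against 368 CPM in CC075F1, and 613 against 546 and 772 against 824 CPM in CC080F1. The edge was lower in 1 section of each strain and higher in the other. Fewer Dcn-expressing cells and less Dcn per cell cannot be told apart in spots, here or for any gene below.

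Lum was higher at the edge than inside in the CC075F1 tumors and had edge ratios near 0 in the CC080F1 tumors. Lum levels were 5.53 and 10.7 CPM in CC075F1 and 7.00 and 25.0 CPM in CC080F1, and the strains overlapped. Edge against interior levels were 17.9 against 3.59 and 46.6 against 5.31 CPM in CC075F1. In CC080F1 they were 8.61 against 6.34 and 22.7 against 25.4 CPM. On the log2 scale the edge was 2.32 and 3.13 above the interior in CC075F1 and 0.44 above and 0.16 below it in CC080F1, with no overlap of the strains. The fitted strain difference of the edge effect was 2.52 (SE 0.24, log2), and it lay between 2.15 and 2.80 in 18 alternative settings. In the interior alone, the 25.4 CPM of CC080F1 replicate 2 was the highest value and the other 3 sections lay between 3.59 and 6.34 CPM.

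Bgn was higher at the edge in all 4 sections. Its levels were 26.9 and 69.6 CPM in CC075F1 and 36.0 and 46.6 CPM in CC080F1, and the strains overlapped. Edge against interior levels were 68.4 against 20.4 and 311 against 33.6 CPM in CC075F1, and 45.4 against 32.2 and 129 against 31.1 CPM in CC080F1. CC075F1 replicate 2 had by far the highest edge level and an interior level like those of the CC080F1 sections.

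Periostin (Postn), which binds collagen and integrins, and tenascin-C (Tnc), a large glycoprotein of wound and tumor stroma, were also genes of the edge. Postn levels were 26.4 and 41.6 CPM in CC075F1 and 44.3 and 40.9 CPM in CC080F1. At the edge against the interior they were 81.3 against 17.8 and 166 against 23.0 CPM in CC075F1, and 65.7 against 35.5 and 117 against 26.5 CPM in CC080F1. Every edge value of Postn was above every interior value. Tnc levels were 4.84 and 12.8 CPM in the CC075F1 sections, with 5.42 and 6.91 CPM in those of CC080F1. Tnc stood at 19.7 against 2.51 and 48.3 against 7.50 CPM at the edge and interior of CC075F1, and at 12.7 against 2.46 and 19.3 against 4.57 CPM in CC080F1. Its edge excess was the most even over sections of any gene that was higher at the edge in all 4 except Thbs2, with log2 ratios of 2.08 to 2.97.

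**Figure D2:**
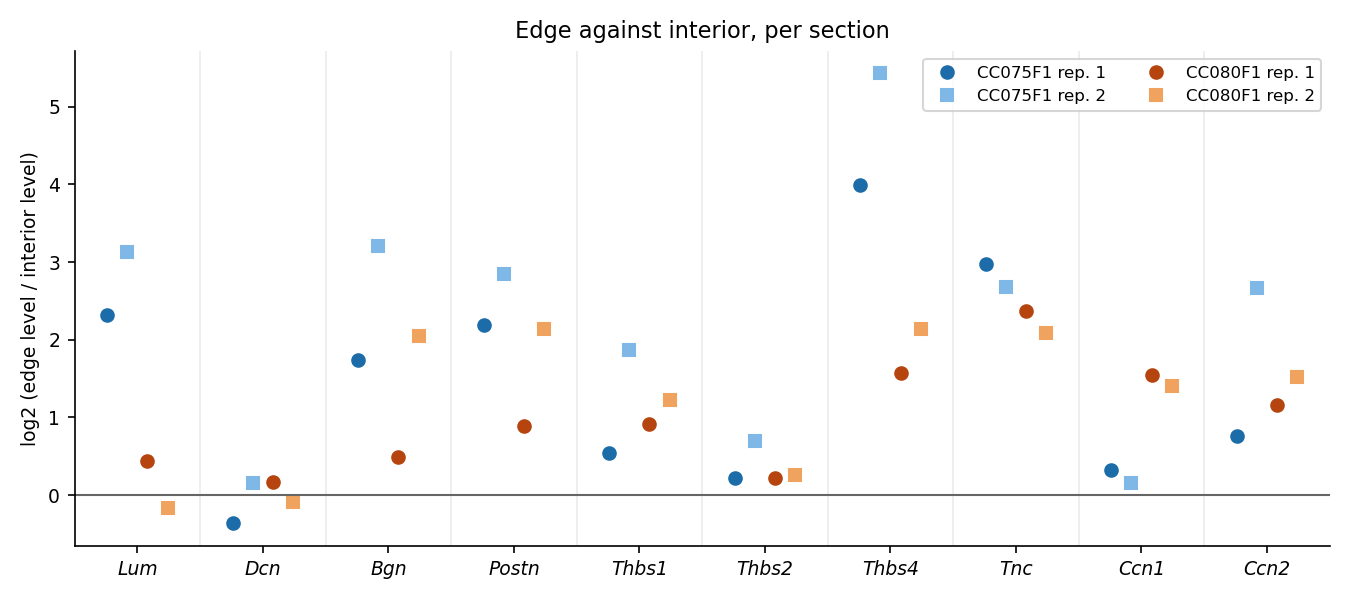
Log2 ratio of the edge level to the interior level for each gene, 1 point per section (blue, CC075F1; orange, CC080F1; circles, replicate 1; squares, replicate 2); the line at 0 marks equal levels. Lum and Thbs4 lie higher in CC075F1, Ccn1 lies higher in CC080F1 (1.40 and 1.55 against 0.15 and 0.33), and Dcn scatters about 0.

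The 3 thrombospondins behaved differently from each other. Thbs1 and Thbs2 encode the trimeric thrombospondins known as inhibitors of angiogenesis, which bind CD36 and CD47, and Thbs1 also activates latent TGF-β. Thbs1 levels were 11.1 and 10.6 CPM in CC075F1 and 19.96 and 12.3 CPM in CC080F1. Thbs1 was higher at the edge in all 4 sections, at 15.3 against 10.5 and 28.9 against 7.89 CPM in CC075F1 and 29.9 against 15.9 and 23.8 against 10.2 CPM in CC080F1. Thbs2 levels were 76.9 and 80.7 CPM in CC075F1 and 74.4 and 112 CPM in CC080F1. Its edge against interior levels were 87.5 against 75.2 and 121 against 74.7 CPM in CC075F1, then 82.5 against 71.0 and 130 against 108 CPM in CC080F1. The edge of Thbs2 was only slightly above the interior, with log2 ratios of 0.22 and 0.69 in CC075F1, with 0.22 and 0.26 in CC080F1.

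Thbs4, a pentameric thrombospondin of tendon, muscle and injured tissue, was high in 1 section. Thbs4 had 42 and 1387 UMIs in the CC075F1 sections and 73 and 53 UMIs in the CC080F1 sections, that is 0.509 and 9.47 against 0.780 and 0.470 CPM. In CC075F1 replicate 2 it stood at 63.0 CPM at the edge and 1.46 CPM inside. In the other sections the edge held 2.68, 1.47 and 1.34 CPM and the interior 0.168, 0.497 and 0.306 CPM, so the edge was higher in all 4. The fitted strain difference in level was 3.57 (SE 1.24, log2) and became -0.22 without CC075F1 replicate 2. The strain difference of the edge effect, 3.20 (SE 0.39, log2), was 2.09 without that section. The same section carried the skeletal muscle signal, and its tendon list was 3.27 higher at the edge against -0.05 to 0.39 in the others (log2). Without its 38 skin, muscle or fat spots the Thbs4 level of that section was 7.91 CPM.

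Ccn1 (Cyr61), an integrin-binding protein induced by growth factors and mechanical stress, showed the opposite strain pattern to Lum and Thbs4. Ccn1 levels were 20.3 and 35.01 CPM in CC075F1 and 40.0 and 36.6 CPM in CC080F1. Edge against interior levels were 24.6 against 19.6 and 38.3 against 34.5 CPM in CC075F1, and 75.0 against 25.7 and 76.6 against 29.0 CPM in CC080F1. The interiors of the strains overlapped and the edges did not. The fitted strain difference of the edge effect was -1.40 (SE 0.13, log2), between -1.58 and -1.12 over 18 alternatives. Ccn2 (CTGF), its close relative and a partner of TGF-β in fibrosis, had edge ratios that overlapped between the strains. Ccn2 levels were 3.51 and 4.81 CPM in CC075F1 and 7.19 and 6.59 CPM in CC080F1, with log2 edge ratios of 0.76 and 2.67 in CC075F1, with 1.16 and 1.52 in CC080F1. Edge against interior, Ccn2 stood at 5.44 against 3.21 and 18.0 against 2.83 CPM in CC075F1, then at 11.8 against 5.29 and 14.6 against 5.08 CPM in CC080F1, higher at the edge in 4 of 4 sections.

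As whole-section levels, the 10 genes gave little that separated the strains. CPM levels of 4 of 10 genes did not overlap between strains (Dcn, Thbs1, Ccn1 and Ccn2, all lower in CC075F1), against 36.6% of all genes at 1 CPM or more. With levels scaled by TMM factors, which were 0.745 in CC075F1 replicate 2 and 1.07 to 1.16 in the others, all 10 genes overlapped, against 33.9% of genes without overlap. The edge ratios of 5 of 10 genes did not overlap (Lum, Postn, Thbs4 and Tnc higher in CC075F1, Ccn1 higher in CC080F1), against 46% of all genes. These contrasts had been used to choose the group, and nothing is read from the shares. Fitted log2 strain differences in level of the 9 genes other than Thbs4 (CC075F1 minus CC080F1) ran from -0.59 for Lum (SE 0.66) to 0.96 for Tnc (SE 0.56).

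Across the 4 sections, edge was set against interior for the 7 genes not named in the choice for their edge ratios. The group was chosen with earlier results of these data known, so these calls are not independent support. Tnc, Postn, Ccn2 and Thbs1 were higher at the edge in edgeR's quasi-likelihood test. The log2 differences were 2.45 for Tnc (SE 0.12, adjusted p = 0.000624), 1.96 for Postn (SE 0.25, adjusted p = 0.0220), 1.51 for Ccn2 (SE 0.24, adjusted p = 0.0421) and 1.09 for Thbs1 (SE 0.16, adjusted p = 0.0360). Bgn (1.84, SE 0.34, adjusted p = 0.0574) and Thbs2 (0.28, SE 0.06, adjusted p = 0.0833) did not pass, and neither did Dcn (-0.10, SE 0.09, adjusted p = 0.605). Thus 4 of 7 genes were called higher and 0 lower, against 0.788% and 0.0837% of the 14345 genes tested, and the median over the 7 genes was 1.51 against -0.02 over all genes. Tnc alone was called when CC075F1 replicate 1 or CC080F1 replicate 2 was left out, and 6 of the 7 genes were called without CC080F1 replicate 1. Over all genes, 1, 3 and 712 were called higher in these settings, in that order.

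Genes of the same families were counted beside them, leaving the 10 out. Of the other small leucine-rich proteoglycans, 1 of 6 tested was higher at the edge (Prelp, 3.27), and of the other matricellular genes 1 of 11 (Spon1, 1.54). None of the 2 other thrombospondins or 3 other CCN genes passed, and no other tenascin could be tested. Among 16 receptor genes, integrin β3 (Itgb3) was higher by 0.68. Of 8 TGF-β targets 2 were higher, Timp1 (0.72) among them. Of 10 YAP/TEAD targets, Nt5e was higher (0.74) and F3 lower (-0.60). Of the marker lists, Col1a2 (2.21) and Col1a1 (2.12) of the 10 fibroblast genes and Tagln (1.82) and Acta2 (1.08) of the 8 pericyte and smooth muscle genes were higher at the edge, and 0 of 10 endothelial genes passed.

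**Figure D3:**
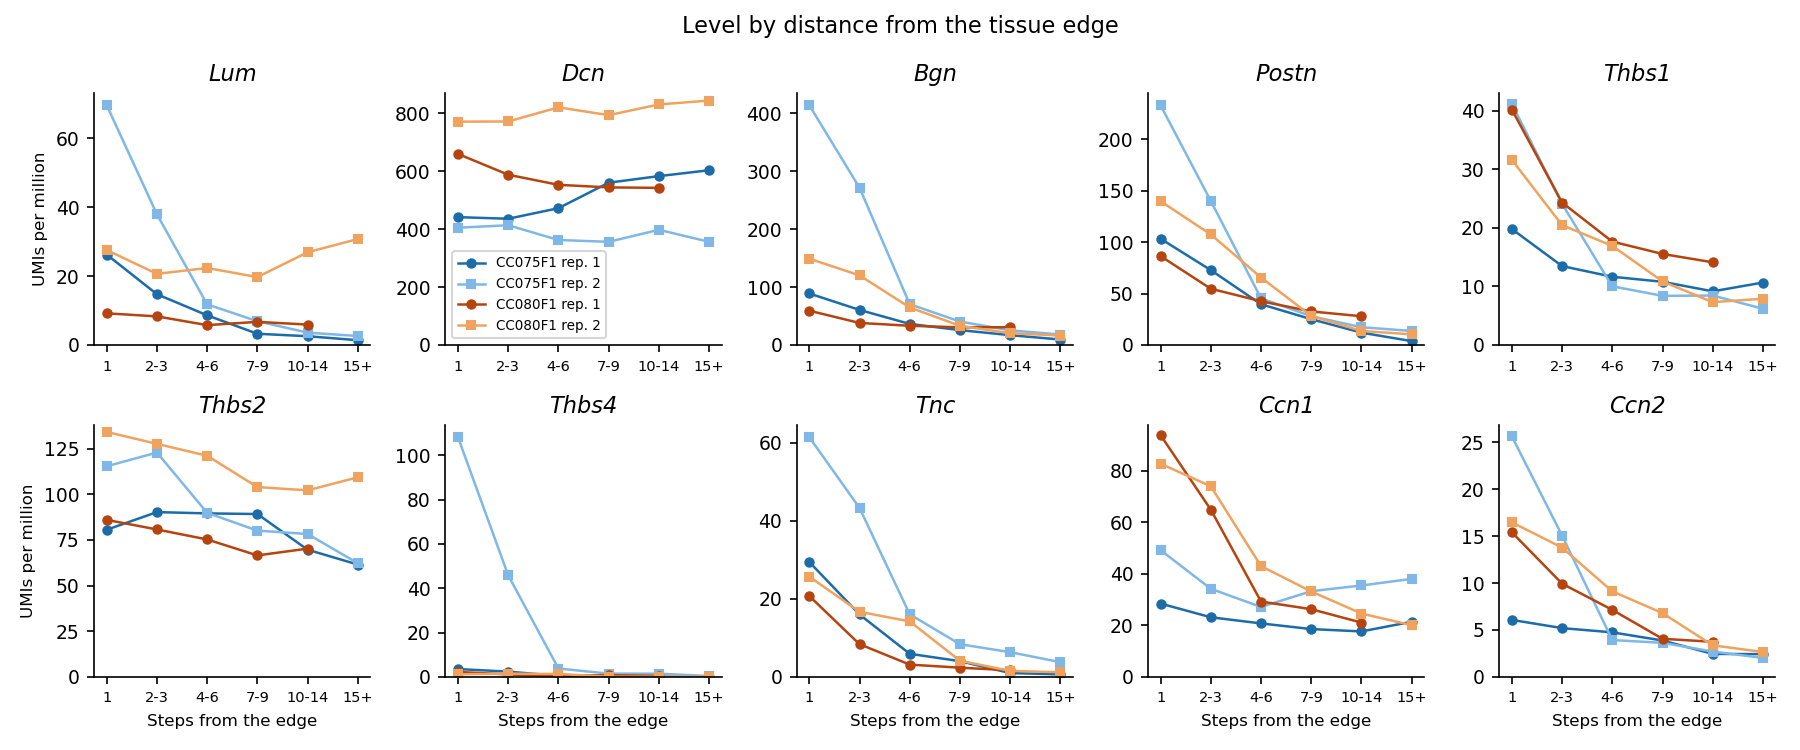
Level of each gene (CPM of the summed spots) against the distance from the tissue edge, in steps between neighboring spots, 1 line per section; bins of fewer than 50 spots are left out. Tnc lay at 20.7 to 61.4 in the outermost step and at 0.968 to 6.32 in steps 10 to 14, whereas Dcn stayed between 356 and 844 throughout.

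The maps showed that the edge was not of one kind, and edge spots were split after seeing them. In the CC075F1 sections all edge spots lay within 10 steps of the convex outline of the tissue. In CC080F1 replicates 1 and 2, 315 and 111 edge spots lay deeper, along gaps that reached into the section. In CC080F1 replicate 1 the Ccn1 level was 106 CPM along the gap, 55.4 CPM along the outline and 25.7 CPM inside. Ccn2 (16.5, 8.89 and 5.29 CPM) and Thbs1 (38.1, 24.6 and 15.9 CPM) had the same order. Postn ran the other way in that section, with 26.8 CPM along the gap, 90.7 along the outline and 35.5 inside, and Bgn likewise had 29.9, 55.4 and 32.2 CPM. In CC080F1 replicate 2 Ccn1 was 24.7 CPM along the gap and 84.0 along the outline, so its edge level there came from the outline. Without the gap spots, 6 of the 7 genes were called higher at the edge, including Bgn (1.91, adjusted p = 0.0147, edgeR) and Thbs2 (0.30, adjusted p = 0.0398). Over all genes the calls rose too, to 383 of 14268 higher, against 113 of 14345 with all edge spots. The strain difference of the edge effect was then -1.25 for Ccn1 (SE 0.17) and 2.37 for Lum (SE 0.25).

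**Figure D4:**
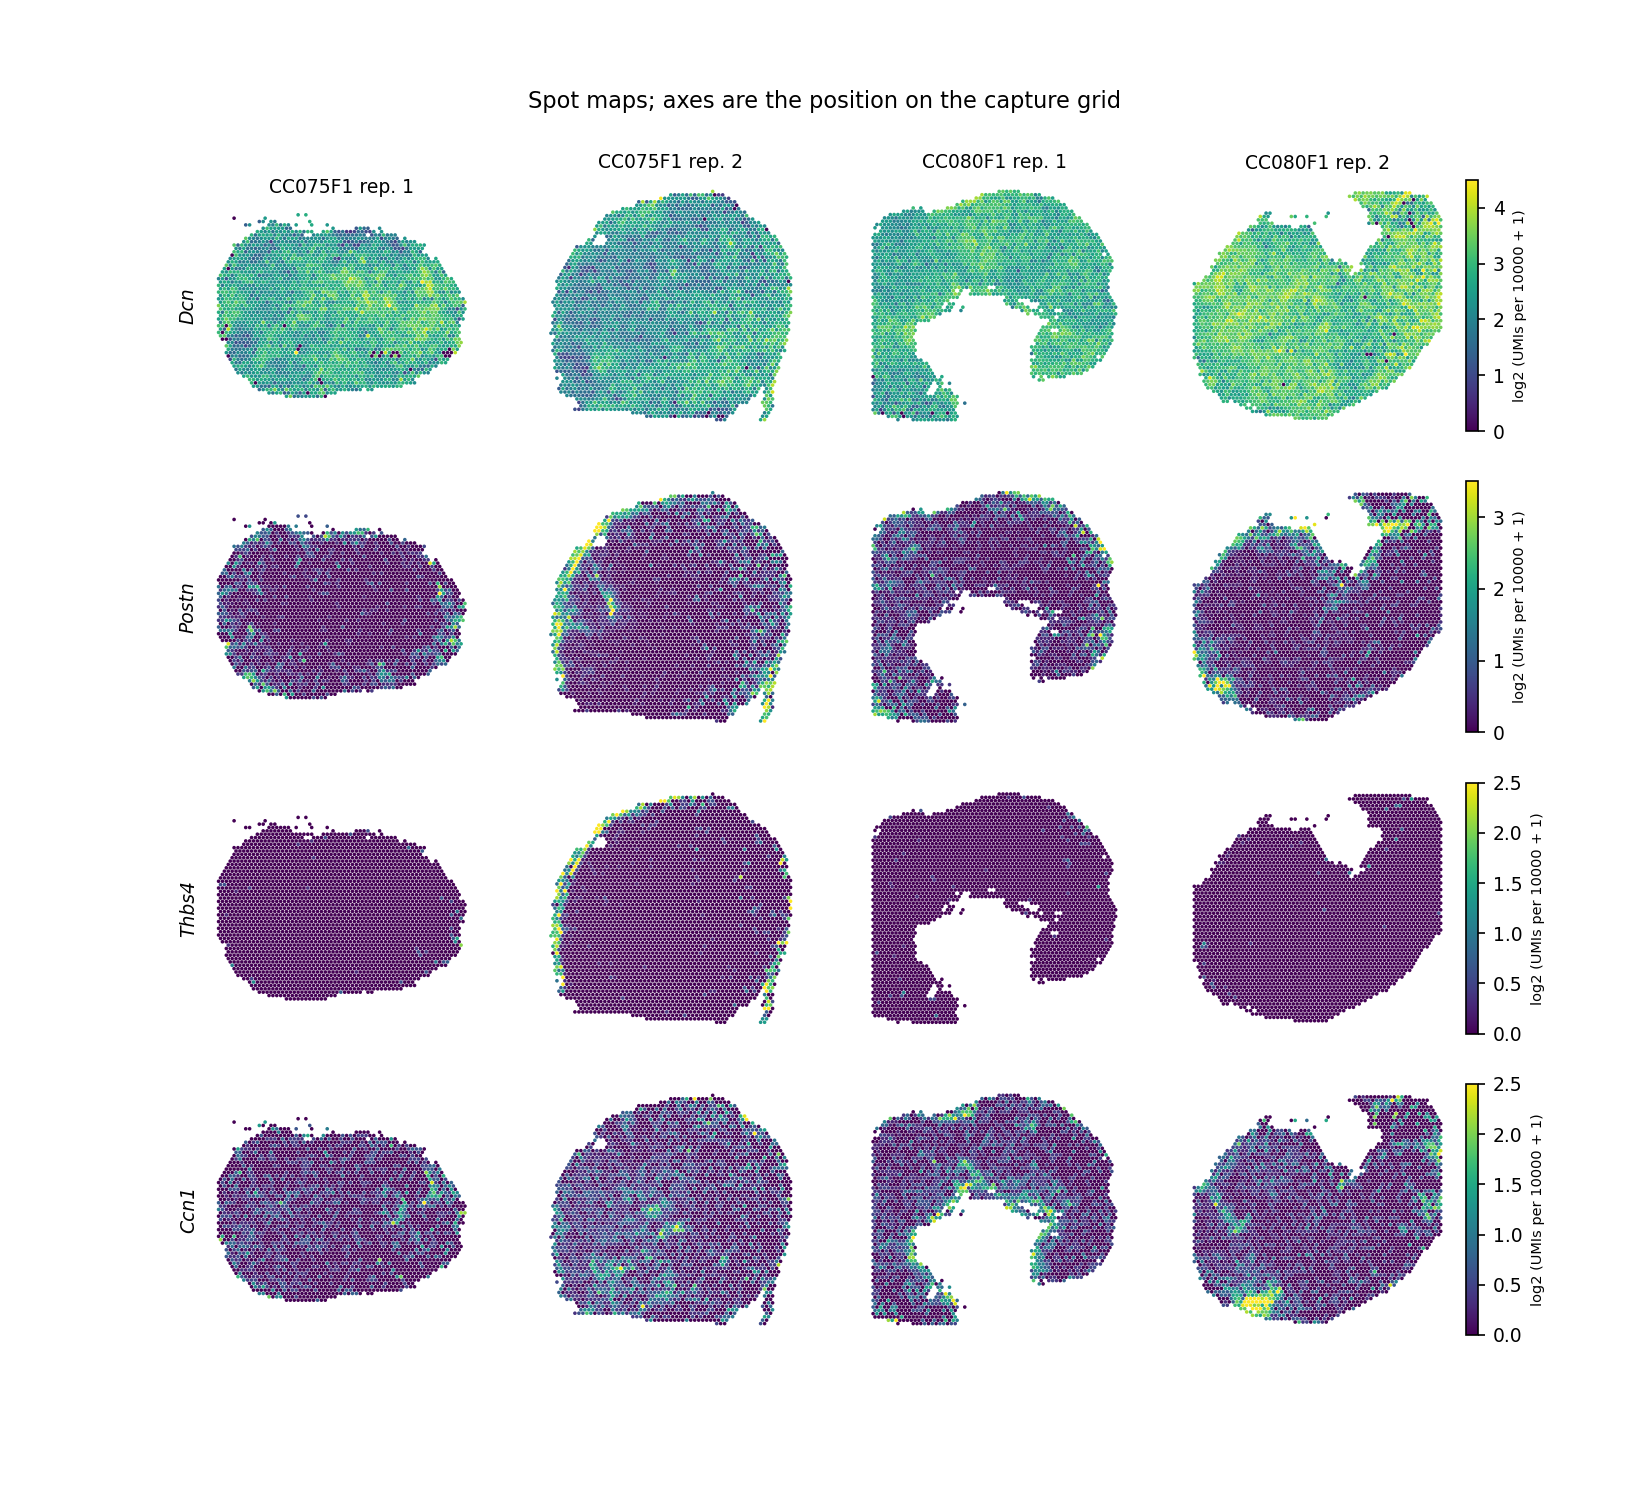
Maps of Dcn, Postn, Thbs4 and Ccn1 in the 4 sections, with each spot at its position on the capture grid and colored by log2(UMIs per 10000 + 1), 1 color scale per gene with the highest values drawn at its top color. Dcn covers the sections, Postn follows stretches of the outline, Thbs4 lines much of the left, upper and right outline of CC075F1 replicate 2, and Ccn1 lines the gap of CC080F1 replicate 1 and a patch at the lower outline of CC080F1 replicate 2.

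Vessel-rich spots were next compared with the rest of each section, a contrast not named in the choice of genes. They were the 10% of spots of each section with the highest summed level of 10 endothelial genes. The members and gene lists were chosen with earlier results of these data known, so calls in any spot class are not independent support. Vessel-rich spots also lay partly at the edge, whose Lum, Thbs4 and Ccn1 values the choice had used. Of the 10 genes, 8 rose in vessel-rich spots, Dcn fell and Ccn1 did not pass (edgeR, adjusted p under the 0.05 threshold). The background was 11.4% of 14310 genes called higher and 7.57% lower, and the median log2 difference was 1.67 over the 10 genes and -0.03 over all genes. The stromal genes rose most alike. Bgn was at 95.9, 342, 82.5 and 205 CPM in the vessel-rich spots of CC075F1 replicates 1 and 2 and CC080F1 replicates 1 and 2, against 20.2, 50.4, 31.6 and 33.3 CPM elsewhere. The fitted rise of Bgn was 2.16 (SE 0.15, log2, adjusted p = 7.26e-07).

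Postn rose by 2.12 (SE 0.12), from 19.7 to 37.7 CPM elsewhere to 95.6 to 184 CPM in vessel-rich spots. Tnc rose by 2.12 (SE 0.13), Thbs4 by 2.28 (SE 0.21), Ccn2 by 1.86 (SE 0.20), Lum by 1.48 (SE 0.25), Thbs1 by 1.00 (SE 0.13) and Thbs2 by 0.32 (SE 0.06), and each was higher in 4 of 4 sections. The adjusted p of these 8 genes was at most 0.00368. Dcn fell by 0.29 (SE 0.05, adjusted p = 0.00234), lower in 3 of 4 sections. Ccn1 differed by -0.09 (SE 0.07, adjusted p = 0.402), with section log2 ratios of -0.14 to 0.28.

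Vessel-rich spots lay at the edge more often than all spots did, with 36.0 to 48.5% against 20.3 to 31.6%. In a check added after seeing the data, the classes were chosen among interior spots alone. The same 8 genes were called higher and Dcn lower, against 1262 higher and 992 lower of all 13963 genes. The rise of Lum was then 0.77 and that of the other 7 genes lay between 0.21 and 2.10. Other stromal markers moved with them: 7 of 10 fibroblast genes (Col1a2, 2.27, and Fap, 2.23, the largest), 6 of 7 pericyte and smooth muscle genes tested, and 8 of 10 skeletal muscle genes were higher. Of the adipocyte genes 5 of 6 tested were higher (median 2.40 over the list), and of the tendon genes 2 of 4. The skeletal muscle list summed to 8.68 to 178 CPM over the sections, with Myh4 at 0 UMIs in 2 of them. Without the skin, muscle or fat spots the 8 members were still called higher, against 1633 of all 14296 genes. The part of fibroblasts, pericytes and fat cells in the rises was not tested.

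The families moved in the same direction in vessel-rich spots. Of the other small proteoglycans 4 of 6 tested were higher (Prelp, 2.98, and Podn, 2.79, the largest), and of the other matricellular genes 9 of 11 (Smoc2, 2.32, and Mgp, 2.22). The other thrombospondins (Comp, 1.86, and Thbs3, 0.68), 2 of 3 other CCN genes (Ccn5, 2.76, and Ccn3, 2.42) and 1 tenascin, Tnxb (2.83), were higher too. Of 16 receptors, 6 were higher, with Itgb3 (1.86) and the thrombospondin receptor Cd36 (0.94) leading. Of 8 TGF-β targets 6 were higher, led by Ltbp2 (2.61), while YAP/TEAD targets went both ways, with 3 higher and 2 lower of 10.

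**Figure D5:**
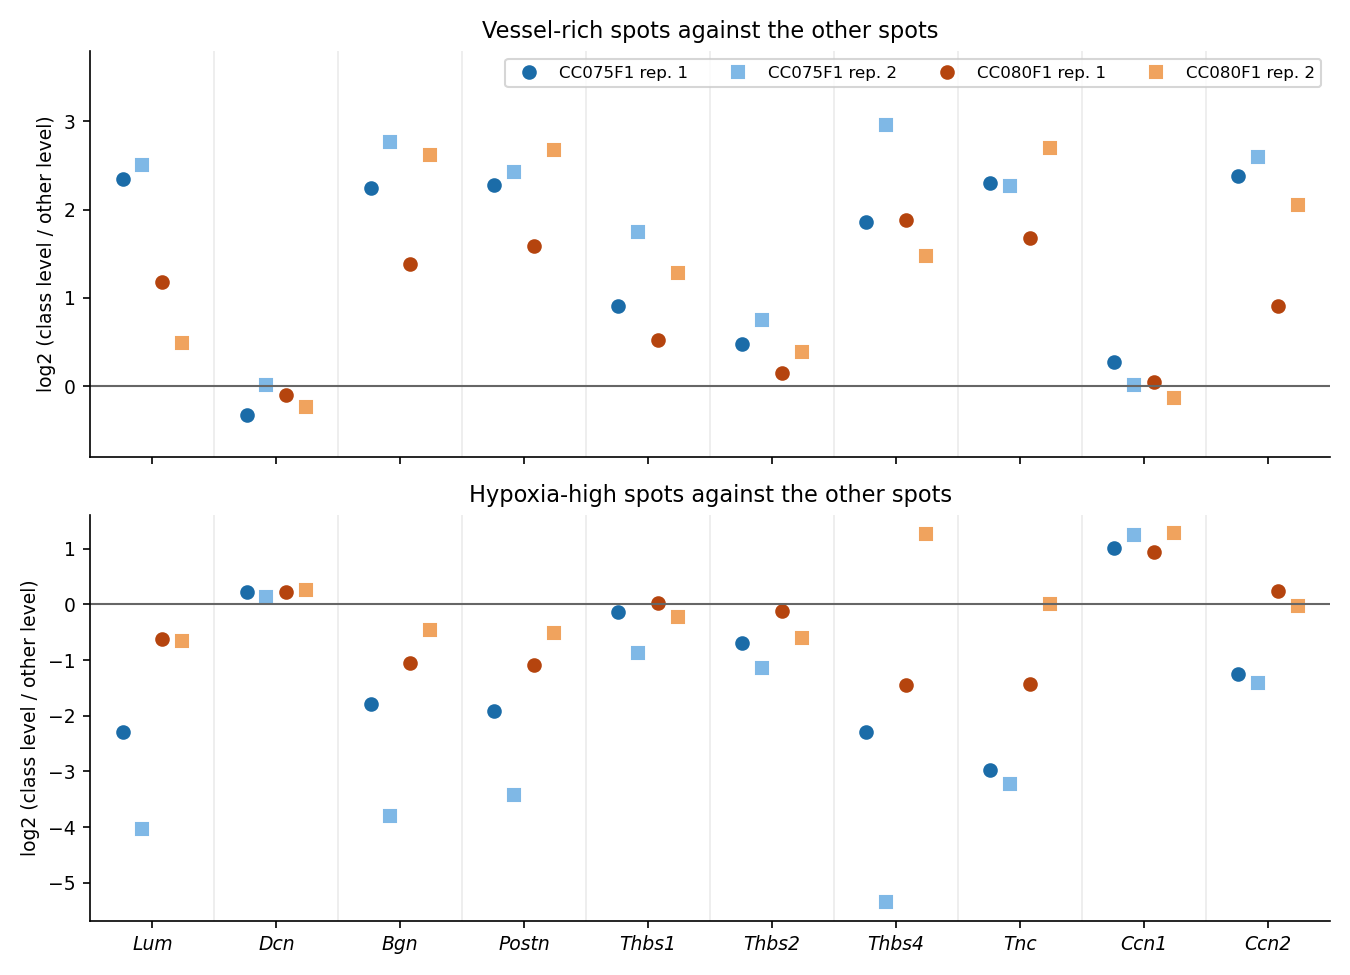
Log2 ratio of the level in vessel-rich spots (upper panel) and in hypoxia-high spots (lower panel) to the level in the other spots of the same section, 1 point per section (blue, CC075F1; orange, CC080F1; circles, replicate 1; squares, replicate 2). Ccn1 lies near 0 in the upper panel and at 0.93 to 1.28 in the lower, and Bgn and Postn lie above 0 in the upper panel and below 0 in the lower.

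Hypoxia-high spots, the 10% with the highest summed level of 10 hypoxia-induced genes, gave a nearly opposite picture. The 2 classes are not independent of each other, because 9 of the 10 hypoxia genes were lower in vessel-rich spots. In hypoxia-high spots Ccn1 and Dcn rose, 6 genes fell, and Thbs1 and Ccn2 did not pass. The background was 19.4% of 14126 genes higher and 17.8% lower. The median over the 10 genes was -0.80 and over all genes 0.00 (-0.00322). Ccn1 was at 36.9, 70.8, 69.7 and 78.7 CPM in hypoxia-high spots of CC075F1 replicates 1 and 2 and CC080F1 replicates 1 and 2, against 18.3, 29.7, 36.5 and 32.5 CPM elsewhere. Every hypoxia-high value was above every value elsewhere, and the rise was 1.37 (SE 0.08, log2, adjusted p = 7.49e-08). Dcn rose by 0.45 (SE 0.05, adjusted p = 2.61e-05), with section ratios of 0.14 to 0.25 before scaling.

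Bgn fell by 1.42 (SE 0.34), Postn by 1.33 (SE 0.29), Tnc by 1.39 (SE 0.38), Lum by 1.21 (SE 0.33), Thbs2 by 0.40 (SE 0.10) and Thbs4 by 2.78 (SE 0.74), with adjusted p of 0.00299 to 0.0120. For Bgn and Postn the ratios were farther below 0 in CC075F1. Postn stood at 7.57 against 28.7 and 4.36 against 47.0 CPM there, and at 22.0 against 46.9 and 29.4 against 42.0 CPM in CC080F1, a strain difference that was not tested. Without CC075F1 replicate 2 the log2 difference of Thbs4 was -0.08 and that of Tnc -0.73, and neither was called. Thbs1 (-0.06, SE 0.11) and Ccn2 (-0.22, SE 0.22) did not pass, with adjusted p of 0.703 and 0.468. Without CC075F1 replicate 2 the falls that were still called became smaller, with -0.65 for Lum, -0.76 for Bgn, -0.84 for Postn and -0.27 for Thbs2. Over all 14106 genes, 2216 were called higher and 2074 lower in that setting. In interior spots alone Ccn1 rose by 1.59, Dcn by 0.43, and Lum, Bgn, Postn, Thbs2 and Tnc were still called lower. There 2596 of all 13872 genes were called higher and 2344 lower.

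Beside these, 9 of 10 endothelial genes, 3 of 10 fibroblast genes, 6 of 7 pericyte and smooth muscle genes, 5 of 6 skeletal muscle genes and 2 of 2 adipocyte genes were lower in hypoxia-high spots, 1 fibroblast gene (Pdgfra, 0.24) was higher, and the part of these cell types in the falls was not tested. Immediate-early genes were higher for 6 of 10, led by Atf3 (2.86) and Ier3 (2.27). Of the families, 4 of 5 other small proteoglycans (Fmod, -3.79, and Podn, -2.02), 3 of 3 other CCN genes (Ccn3, -1.86, and Ccn5, -1.53) and 6 of 11 other matricellular genes (Smoc2, -3.08, and Mgp, -2.62) were lower. Osteopontin (Spp1) was the 1 other matricellular gene that was higher (0.56). Of 10 YAP/TEAD targets 1 was higher, F3 (1.33). Of 8 TGF-β targets 4 were higher, Smad7 (0.81) among them, and 2 were lower. Receptors were split, with 4 higher (Sdc4, 0.99, first) and 3 lower (Itgb3, -1.08, first).

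The edge ratios of the hypoxia list did not overlap between the strains, and its values are given beside those of Ccn1; its part in the Ccn1 difference was not tested. Its log2 edge ratio was -0.55 and -0.50 in CC075F1, with 0.07 and 0.59 in CC080F1. The endothelial list had log2 edge ratios of 1.05 and 1.07 in CC075F1, with 0.14 and 0.41 in CC080F1, and its part in the Lum difference was not tested.

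Fibroblast-rich spots gave large differences and no call. Ranked by 10 fibroblast genes, the spots held 2.84 more Postn, 2.88 more Tnc, 2.72 more Bgn, 3.57 more Thbs4 and 2.17 more Lum on the log2 scale, and 0.07 more Dcn. Without CC075F1 replicate 2 the value was 1.91 for Thbs4 and 1.42 for Lum. Edge spots made up 71.3% of the fibroblast-rich spots of that section and 21.4% of those of CC075F1 replicate 1. The adjusted p was 0.174 for 7 of the genes, 0 genes of 14243 were called (0% higher and 0% lower) in edgeR, and 3106 genes, 8 members among them, had an unadjusted p under 0.05. DESeq2's Wald test called 447 genes higher and 183 lower, with 7 of the 10 among the higher, and limma-voom called 0. One gene, Col3a1, supplied 36.4 to 70.9% of the list's UMIs, and Postn followed Col1a2 (mean r = 0.74 over spots) more closely than Col3a1 (0.23). With equal weight for each list gene, 7 of the 10 were called higher in edgeR, where 597 of all 14365 genes were called higher and 40 lower.

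In macrophage-rich spots 0 of the 10 genes were called in edgeR, with 5 at an unadjusted p under 0.05, 0 called by DESeq2 and 1 (Thbs4) by limma-voom. The edgeR background there was 2.28% of genes higher and 0.655% lower, with 4033 genes at an unadjusted p under 0.05. Over all 14190 genes, DESeq2 called 824 higher and 562 lower, and limma-voom 653 higher and 251 lower. The log2 difference of Ccn1 was -0.42 (SE 0.14, adjusted p = 0.113, edgeR), with a section ratio above 0 in CC075F1 replicate 2 (0.30). With interior spots alone Ccn1 was called lower (adjusted p = 0.0016, edgeR) while Bgn, Postn, Thbs4 and Tnc were called higher. The background was larger in that setting, with 1023 of 13905 genes called higher and 994 lower.

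Across spots within a section, Bgn, Postn and Tnc with each other, and Lum with Bgn and Postn, gave the highest correlations. Dcn and Ccn1 stood apart from these genes. These correlations of log2(UMIs per 10000 + 1) are descriptions, because spots share library, depth and neighbors. The mean of r over the 4 sections was 0.66 for Bgn with Postn, 0.47 for Postn with Tnc, 0.43 for Bgn with Tnc and 0.40 for Lum with Bgn. Lum with Tnc gave 0.26, below Postn with Thbs4 (0.29). The r of Lum with Bgn was 0.75 in CC075F1 replicate 2, 0.39 in CC075F1 replicate 1 and 0.24 in both CC080F1 sections. Among Thbs1, Thbs2, Thbs4 and Ccn2 the mean r was weaker than among Bgn, Postn and Tnc, from 0.09 (Thbs1 with Thbs2) to 0.27 (Thbs1 with Ccn2). Dcn reached at most 0.11 with any other member, with Thbs2, and Ccn1 at most 0.18, with Thbs1. Lum with its chromosomal neighbor Dcn gave 0.04.

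Among all genes seen in at least 10% of spots of each section, those most like a member also differed between the members. Col1a2 and Col1a1 were the leading companions of Lum, Bgn, Postn, Thbs4 and Tnc, followed by Fbln2 or Sparc, with mean r up to 0.74. Dcn went with Fn1 (0.30), Nupr1 (0.25) and Ecm1 (0.25), and its r with Col1a2 was -0.06. Thbs2 was closest to Shisal2b (0.32), the gene by which the study marked MC38 cells, before Col1a2 (0.27) and Col1a1 (0.25). Thbs1 and Ccn2 shared Acta2, a smooth muscle and myofibroblast actin (0.25 and 0.31), with Col1a1 and Col1a2. Ccn1 went with Ptgs2 (0.31), Actg1 (0.29) and Ier3 (0.28), and the r with Ptgs2 was higher in CC080F1 (0.47 and 0.38) than in CC075F1 (0.12 and 0.25).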

How the data were processed

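Fresh frozen tumor sections were profiled with Visium. Per the labels and the study's methods, the authors aligned reads to GRCm38 (mm10) with Space Ranger and assigned them to spots under tissue. The values deposited are raw counts (UMIs, not normalized) for each gene in each spot, and the deposited position lists hold other values (grid coordinates). The authors' normalized values were not used. The members and gene lists were chosen with earlier results of these data known.

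UMIs were summed over all spots of a section, over its edge and interior, or over a spot class and the other spots. Sums were fitted over all genes passing filterByExpr with edgeR 4.0.16 (R 4.3.3, quasi-likelihood, TMM factors, Benjamini-Hochberg adjustment, threshold 0.05). Terms were the strain, or the section with edge or class. Section is the replicate, with 2 per strain, so that a permutation test of strains cannot give a p below 0.333. Per the study's methods the sections came from 4 tissue blocks, each permeabilized for its own time. The tested contrasts hold the section as a term, so p-values measure how the within-section difference varies between tumor blocks. The strain-by-edge term used the section as well. DESeq2 1.42.0 and limma 3.58.1 (voom) were alternatives. Class spots were the top 10% of each section by summed CPM of the list. Skin, muscle or fat spots (over 1% of UMIs in 1 list) and the gap margin (over 10 steps inside the convex outline) were defined after seeing the data. The comparisons with classes chosen among interior spots, and the edge fits without gap, vessel-rich or hypoxia-high spots, were also added after seeing the data. Doublet calling does not apply to spots. Exact binomial intervals cover counting error only. The strain and edge fits were also run on simulated counts with a fixed dispersion and no differences between sections. That simulation does not measure the error of the fits in these sections. Named genes are the 10 members, their 3 closest companions over spots and, per list, up to 2 called genes with the largest change in each direction. One gene of the TGF-β target list is not reported here.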

Additional observations from a re-analysis of the deposited data

How the results depend on the processing

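In vessel-rich spots the 8 rises were called in all 15 alternatives run, and the fall of Dcn in 14 of them. By library size alone 0 members were called lower there (Dcn, adjusted p = 0.0510, edgeR), against 353 of all 14310 genes. In hypoxia-high spots the rises of Ccn1 and Dcn were called in all 15 alternatives. Over all genes, these settings called 1078 to 2594 higher in vessel-rich and 965 to 2850 higher in hypoxia-high spots. Scaling by library size alone moved the median of all genes to -0.31 (strain), -0.25 (hypoxia-high) and 0.12 (strain by edge). With DESeq2's Wald test 3 members, not 6, were called lower in hypoxia-high spots, against 1929 of all 14126 genes. The number of members called higher at the edge was 1 to 6 when a section was left out, against 1 to 712 of all genes. In fibroblast-rich spots 2 members were called higher with no filter on low counts, and 7 with DESeq2 or with equal weight of list genes. There were 5 with 5% of spots or interior spots alone. Over all genes, 100, 447, 597, 99 and 259 were called higher in these settings, in that order. In macrophage-rich spots 0 to 2 members were called higher and 0 to 1 lower when a section was left out. There was 1 higher with limma-voom, 1 higher and 1 lower with no filter, and 4 higher and 1 lower in the interior. Over all genes, 0 to 1015 were called higher and 0 to 930 lower when a section was left out. Limma-voom called 653 of 14190 genes higher, and with no filter 579 of 22507 were higher and 422 lower. In the interior 1023 of 13905 were called higher and 994 lower. The log2 strain differences ran from -1.52 to 0.70 (Lum), -0.22 to 4.52 (Thbs4) and -0.86 to 0.46 (Ccn1) when a section was left out. For Ccn1 the strain difference was -0.47 by library size alone and 0.42 in the interior, and the cause was not tested. The strain-by-edge difference was 2.15 to 2.80 (Lum), 2.09 to 3.49 (Thbs4) and -1.55 to -1.21 (Ccn1) with a section left out. For Thbs4 it was 1.83 without fibroblast-rich spots. For Ccn1 it was -1.24 by library size alone, -1.12 from the outer boundary alone, -1.58 without fibroblast-rich, -1.53 without vessel-rich and -1.25 without gap spots. Signs changed only for values not called. For Dcn the range with a section left out was -0.182 to 0.0079 at the edge, -0.0934 to 0.195 in fibroblast-rich and -0.0242 to 0.0862 in macrophage-rich spots. Dcn was also -0.0888 (equal weights) and -0.0257 (no collagens) in fibroblast-rich, and -0.0068 (no filter) and -0.0313 (equal weights) in macrophage-rich spots. Ccn1 in fibroblast-rich spots was -0.211 to 0.18 with a section left out, 0.0282 by library size alone, 0.0684 with equal weights and 0.12 with 5% of spots, and in vessel-rich spots 0.0383 by library size alone and 0.14 with 5% of spots. In hypoxia-high spots Thbs1 was -0.165 to 0.0926 and Ccn2 -0.509 to 0.0656 with a section left out, and 0.13 and 0.30 in the interior. The deviations of same-numbered sections correlated at 0.17 over genes. With the replicate number as a block, the strain differences were -0.47 (Lum), 2.28 (Thbs4) and -0.20 (Ccn1). Thbs4 rests on 42 to 73 UMIs in 3 of the sections.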
